A study of Homo sapiens with 6 samples.

Results

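The caudal-type homeobox family has 3 members in the human genome, CDX1, CDX2 and CDX4, and all 3 were taken by symbol from the 27672 genes of the deposited table. Transcripts were measured by sequencing of polyadenylated RNA in 3 libraries of undifferentiated human embryonic stem cells (hESCs, day 0) and 3 libraries of neuromesodermal progenitor-like cells (NMP-L, day 3), which the labels call biological replicates. Both groups came from H9, a single human embryonic stem cell line. Per the labels, the hESCs were untreated and were kept without feeders on fibronectin in DEF medium that held bFGF (30 ng/ml) and Noggin (10 ng/ml). The NMP-L cells were made over 3 days in neurobasal medium supplemented with N2 and B27, to which bFGF (20 ng/ml) was added along with CHIR99021 (3 µM), a GSK3 inhibitor that activates Wnt signalling. The methods of the study name another medium and substrate for the hESCs, and inhibitors of BMP and TGFβ signalling from the second day of differentiation, which the labels do not mention.

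CDX proteins are homeodomain transcription factors. In the elongating vertebrate axis they are expressed in the caudal epiblast and tailbud, where neuromesodermal progenitors lie. Their genes are known targets of Wnt, FGF and retinoic acid signalling, and the proteins in turn activate HOX genes of the trunk. CDX2 is also known for its role in the trophectoderm of the blastocyst, and CDX1 and CDX2 for theirs in the intestinal epithelium. CDX2 belongs to the ParaHox cluster, which it shares with GSX1 and PDX1.

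CDX1 and CDX2 went from almost no reads in hESCs to between 202 and 607 counts per library in NMP-L cells, whereas CDX4 was detected in both and rose about 2-fold. All 3 were past the threshold for a rise, an adjusted p under 0.05, against 29.1% of the 15517 genes tested. CDX1 and CDX2 passed the filter on low counts only through their NMP-L libraries. Once tested they could hardly show anything but a rise, so that 29.1% is no fair yardstick for them. Libraries held between 19454543 and 23036426 expected counts, and the detection floor of 3 counts in a library equals 0.130 to 0.154 CPM, a count scaled to a common library total. Libraries of a condition were alike, with correlations of log2 CPM across genes between 0.986 and 0.990 within conditions and between 0.916 and 0.924 across them. The balance of directions over all genes depended on the scaling: 52.1% of the genes called were higher in NMP-L cells after TMM scaling, 87.5% relative to GAPDH counts and 25.3% relative to HPRT1 counts, with median log2 fold changes of 0.03, 0.59 and -0.27. The labels of the NMP-L cells were checked on T (BRACHYURY), with 0, 0 and 2 counts in hESCs against 537, 293 and 629 in NMP-L cells. SOX2, the other marker by which the study defines NMP-L cells, cannot serve as such a check. It was at 219 TPM (a level scaled by transcript length and library) on average in hESCs and 245 in NMP-L cells, with overlapping libraries.

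CDX2 lies on chromosome 13 of GRCh37, from 28535055 to 28543452 on the minus strand, with 3 exons and a coding length of 939 bases. Its expected counts were 0, 1 and 0 in hESC replicates 1, 2 and 3 and 522, 326 and 607 in NMP-L replicates 1, 2 and 3. The lowest NMP-L library thus exceeded the highest hESC library by more than 300 counts. In levels per length this was 0, 0.04 and 0 TPM in hESCs and 21.7, 14.4 and 24.9 TPM in NMP-L cells, a mean of 20.3 ± 5.42 TPM (SD, n = 3). Since the hESC libraries held 1 CDX2 count in all against 1455 in NMP-L cells, the ratio of the pooled counts after scaling by library totals was 1308, with a wide exact 95% interval of 234 to 51690, which covers counting error only. The fitted log2 fold change was 9.84 (standard error 0.44, adjusted p = 1.2e-08, edgeR's quasi-likelihood test). Its size rests on that single count: without hESC replicate 2 it was 11.82. DESeq2 gave 10.14 with a standard error of 1.19, so that the 0.44 is too small a measure of its uncertainty.

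CDX1 lies on chromosome 5, from 149546341 to 149564121 on the plus strand, with 3 exons and a coding length of 795 bases. It had 0, 0 and 4 counts in hESC replicates 1 to 3 and 312, 202 and 321 in the NMP-L replicates. The 4 counts of hESC replicate 3 were the only CDX1 reads of undifferentiated cells. The NMP-L level was 17.44, 11.97 and 17.74 TPM, a mean of 15.7 ± 3.25 TPM (SD, n = 3). The pooled ratio of NMP-L to hESC was 188, with an exact 95% counting interval of 73.0 to 690. The fitted log2 fold change was 7.35 (standard error 0.44, adjusted p = 9.9e-08) and was 11.02 without hESC replicate 3. With DESeq2 it was 7.45, with a larger standard error of 0.75.

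CDX4 lies on chromosome X, from 72666889 to 72675007 on the plus strand, also with 3 exons, and has a coding length of 852 bases. Unlike its relatives it was above the detection floor in every hESC library, with 21, 11 and 17 counts, against 44, 34 and 31 in NMP-L cells. The highest hESC library remained 10 counts below the lowest NMP-L library. Levels were 2.99, 1.45 and 2.34 TPM in hESCs (2.26 ± 0.773, SD, n = 3) and 5.44, 4.45 and 3.79 TPM in NMP-L cells (4.56 ± 0.831, SD, n = 3). The pooled ratio was 2.00, with an exact 95% counting interval of 1.42 to 2.86, and the fitted log2 fold change was 0.92 (standard error 0.30, adjusted p = 0.023). This call was less firm than those of CDX1 and CDX2. Its adjusted p was 0.057 with DESeq2, 0.14 relative to HPRT1 counts, and 0.091, 0.064 and 0.086 without hESC replicate 2, hESC replicate 3 and NMP-L replicate 1.

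For each of the 3 genes every NMP-L library lay above every hESC library, a separation upwards seen in 37.1% of the genes tested (62.7% in either direction). For CDX1 and CDX2 these shares are no fair yardstick either, since both passed the filter only through NMP-L cells. Permuting the condition labels exactly, with log2 CPM as the measure and both sides counted, gave p = 0.1 for each of the 3 genes, the smallest value that 3 libraries against 3 allow. None of the 3 genes had a fractional expected count in any library. Bulk RNA does not tell a larger share of cells with a transcript from more of the transcript per cell.

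**Figure D1:**
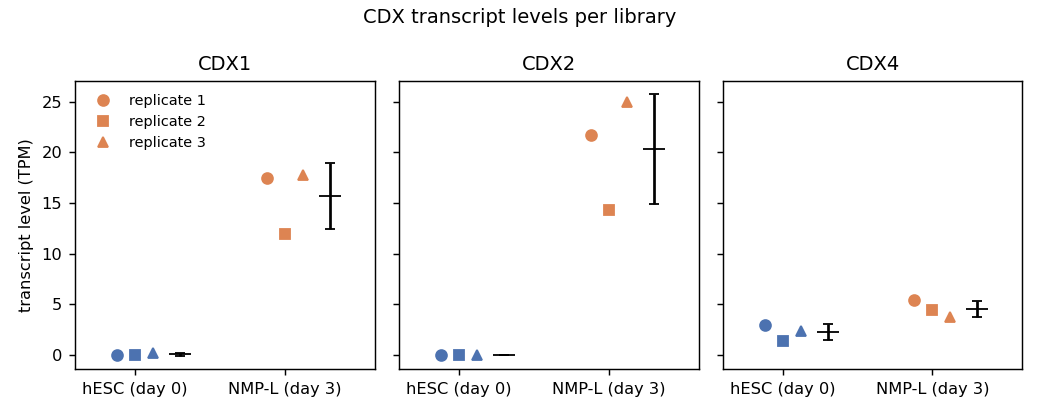
Transcript level in TPM (vertical axis) of CDX1, CDX2 and CDX4 in each hESC library (blue) and NMP-L library (orange), with symbols for the replicate number and black bars for the mean ± SD of 3 libraries. CDX1 and CDX2 sit at or near 0 in hESCs, while CDX4 lies between 1.45 and 2.99 TPM there and between 3.79 and 5.44 TPM in NMP-L cells.

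The order of the family differed between the conditions. In hESCs the summed CDX level was only 1.49 to 2.99 TPM per library, and CDX4 made up between 90.4% and 100% of it. In NMP-L cells the sum was 44.6, 30.8 and 46.5 TPM, of which CDX2 made up 46.6% to 53.7%, CDX1 38.2% to 39.1% and CDX4 8.16% to 14.5%. The levels of CDX2 and CDX1 in NMP-L cells overlapped as groups, although within each library CDX2 was the higher in TPM, by 1.20 to 1.41 times (mean log2 difference 0.35 ± 0.12, SD, n = 3). These shares and ratios depend on the transcript lengths behind the TPM values, which the sources do not give. The canonical transcripts of GENCODE are 3448 bases long for CDX2, 1775 for CDX1 and 1642 for CDX4. Whether the small lead of CDX2 over CDX1 holds with other lengths was not tested. CDX2 and CDX1 were both above CDX4 in all 3 libraries, CDX2 by 3.23 to 6.58 times and CDX1 by 2.69 to 4.68 times. The exact sign-flip permutation test gave p = 0.25 for each of the 3 pairs (0.25 also when adjusted over them), the smallest value that 3 libraries allow. By TPM, 41.9% of the genes tested were above CDX2 in NMP-L cells, 48.4% above CDX1 and 72.9% above CDX4.

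NMP-L replicate 2 had the lowest level of CDX1 and of CDX2, but not of CDX4, which was lowest in replicate 3. The same library was the lowest for 11 of the 12 caudal progenitor genes that rose (described with that list), whereas over the 4512 genes called higher it was the lowest for 34.0%. T followed CDX2 from library to library, with CDX2 at 1.02, 1.15 and 0.992 times the TPM of T in replicates 1, 2 and 3. CDX1 stood at 0.818, 0.960 and 0.706 times T. With 3 libraries no correlation was computed.

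Likeness of patterns was measured as the Euclidean distance between log2(TPM + 0.1) over all 6 libraries. The gene nearest to CDX1 among all genes tested was T (distance 1.06), followed by FOXA2 (1.92), a forkhead factor of node, floor plate and endoderm, and by CDX2 (1.98). The gene nearest to CDX2 was also T (1.07), then FOXA2 (1.58) and CDX1. FOXA2 had 0, 5 and 2 counts in hESCs and 473, 264 and 535 in NMP-L cells, with its lowest NMP-L value in replicate 2 like CDX1, CDX2 and T. CDX4 had other neighbours, C8orf37 (0.482), ITGA2 (0.497) and ZMYND12 (0.593), which were at 1.63 to 2.69 TPM in hESCs and at 3.76 to 4.93 TPM in NMP-L cells. Since the nearest genes were picked by their distance over these same 6 libraries, their like levels follow from the choice and are no further result.

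No promoter sequence of CDX1 was present in the reference used here, so its promoter was not examined. The promoter sequences of CDX2 and CDX4, which rose from different levels in hESCs, are shown. Both matched the RefSeq promoter table (GRCh38.p14) by symbol, and the 250 bases before each annotated start are given 5′ to 3′ on the strand of the gene, chr13:27969316-27969565 (minus strand) for CDX2 and chrX:73446803-73447052 (plus strand) for CDX4. Capitals mark the only run of at least 8 bases that the windows share on the same strand.
CDX2: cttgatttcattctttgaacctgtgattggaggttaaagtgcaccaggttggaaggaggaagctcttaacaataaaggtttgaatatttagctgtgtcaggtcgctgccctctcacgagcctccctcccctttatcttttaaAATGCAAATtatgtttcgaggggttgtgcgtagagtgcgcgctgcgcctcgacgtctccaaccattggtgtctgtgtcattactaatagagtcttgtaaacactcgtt
CDX4: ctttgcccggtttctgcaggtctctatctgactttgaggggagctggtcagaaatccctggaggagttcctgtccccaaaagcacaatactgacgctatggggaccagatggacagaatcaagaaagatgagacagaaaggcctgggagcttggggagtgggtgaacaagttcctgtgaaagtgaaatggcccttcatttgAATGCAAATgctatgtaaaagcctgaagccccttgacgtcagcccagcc
This run of 9 bases, AATGCAAAT, lay at -108 to -100 in CDX2 and at -49 to -41 in CDX4, counted from the start with -1 as the last base before it. It occurs on either strand in 0.481% of the 35116 promoter windows of the table. It contains the octamer ATGCAAAT, known as a recognition sequence of POU factors such as POU5F1 (OCT4), which 1.63% of the windows hold. The run was picked because it was shared, out of all positions of both windows. These 2 shares therefore do not say how often a pair of windows has some run in common, which was not tested. Each window also held 1 copy of CTTTGA, the core recognised by TCF/LEF factors, the DNA-binding partners of β-catenin, at -238 to -233 in CDX2 and at -219 to -214 in CDX4 (11.2% of windows hold it), and neither held the related CTTTGT (13.7%). The CDX core TTTAT was found on each strand of the CDX2 window, at -120 to -116 and -179 to -175, and not in the CDX4 window (32.7% of windows hold it). The retinoic acid receptor half-site AGGTCA (12.1%) was in neither. The CCAAT box (CCAAT, 32.0% of windows) was found at 2 places in CDX2, -225 to -221 and -45 to -41, and the CRE half-site TGACG (21.2%) in CDX4 at -160 to -156 and in an overlapping pair at -16 to -12 and -13 to -9. All motifs were searched on both strands, and a match describes the letters only.

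Genes known to act on CDX transcription were examined as a list of 13, all of which passed the filter on low counts. Of these, 5 rose and 5 fell, a share called that stands beside 55.8% over all genes tested, with a median log2 fold change of -0.12 in the list and 0.03 over all genes. LEF1, a TCF/LEF factor that is itself a Wnt target, showed the largest rise of the list, from 51, 40 and 41 counts in hESCs to 577, 443 and 644 in NMP-L cells (log2 fold change 3.42, standard error 0.16, adjusted p = 1.6e-08). TCF7L1, the family member known mainly as a repressor, fell from 136 ± 11.2 to 48.7 ± 5.33 CPM (SD, n = 3 each, log2 fold change -1.56, adjusted p = 1.7e-07). TCF7L2 also fell (-0.66, adjusted p = 1.2e-04), a call that was lost relative to GAPDH counts (-0.10, adjusted p = 0.54). TCF7 had a log2 fold change of 0.19 and an adjusted p of 0.15. It was called higher relative to GAPDH counts (0.74, adjusted p = 2.4e-04) and with library-size scaling (adjusted p = 0.049), and was at -0.10 relative to HPRT1 counts. CTNNB1, which encodes β-catenin, rose by 0.30 on the log2 scale (adjusted p = 0.0025), but was at 0.00 relative to HPRT1 counts (adjusted p = 0.99).

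Among the retinoic acid receptors, RARA rose (0.75, adjusted p = 4.5e-04, or 0.44 and 0.086 relative to HPRT1 counts) and RARG fell (-0.97, adjusted p = 1.2e-05). RARB had an adjusted p of 0.28 and RXRB one of 0.32. The small rises of RXRA (0.32, adjusted p = 0.019) and of the FGF receptor FGFR1 (0.23, adjusted p = 0.044) were lost with the replicate number as a block (adjusted p = 0.063 and 0.097) and relative to HPRT1 counts, where RXRA was at 0.02 and FGFR1 changed sign to -0.07. FGFR1 also lost its call with RLE scaling, upper-quartile scaling and DESeq2 (adjusted p = 0.070, 0.098 and 0.077). Without hESC replicate 1, hESC replicate 2 or NMP-L replicate 1 the adjusted p of RXRA was 0.070, 0.054 and 0.065 and that of FGFR1 0.16, 0.095 and 0.20, and the calls were also lost without NMP-L replicate 2 for RXRA (0.052) and without hESC replicate 3 for FGFR1 (0.059). The pluripotency factor POU5F1, which is known to repress CDX2 in the blastocyst, fell from 1292 ± 84.0 to 720 ± 33.6 CPM (log2 fold change -0.92, adjusted p = 1.2e-06), and thus remained abundant in NMP-L cells. Its expected counts are partly fractional, because some of its reads are shared with other genes, and its values are uncertain to that extent. NANOG fell further (-2.59, adjusted p = 2.9e-09).

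The list of caudal progenitor genes held 20 genes of the tailbud and primitive streak. Of these, 17 passed the filter and all 17 were called (55.8% over all genes tested), 12 higher and 5 lower, with a median log2 fold change of 2.15. Scaled to GAPDH, 12 rose and 4 fell, since AXIN2 changed from -0.35 (adjusted p = 0.0081) to 0.21 (adjusted p = 0.11). AXIN2, a negative feedback regulator of Wnt signalling, also had an adjusted p of 0.052 without NMP-L replicate 2. T, SP5, EVX1, WNT3A, WNT8A and HES7 passed the filter only through NMP-L cells, and FGF4, FGF17 and CYP26A1 only through hESCs. For such genes the filter largely set the call and its direction, so that 17 of 17 is not comparable with 55.8%. With at least 10 counts required in every library, 8 genes of the list were called, 6 higher and 2 lower.

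T, the T-box factor of primitive streak and mesoderm, rose by 9.04 on the log2 scale (standard error 0.50, adjusted p = 5.7e-08). SP5, a zinc finger factor and direct Wnt target, had 5, 6 and 6 counts in hESCs and 1344, 1066 and 1352 in NMP-L cells. Its relative SP8 rose less, from 118, 80 and 133 counts to 300, 248 and 318. EVX1, a homeobox gene of the primitive streak and tailbud, had 0 counts in all 3 hESC libraries and 65, 43 and 71 in NMP-L cells, at least 17.8-fold higher when each hESC library is set at the floor of 3 counts. NKX1-2, a homeobox gene typical of the caudal epiblast, was already at 42, 55 and 56 counts in hESCs and reached 253, 216 and 281. Each of these genes thus had all NMP-L libraries above all hESC libraries, as did 37.1% of all genes tested. Their starting levels ranged from 0 to over 100 counts.

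Of the Wnt ligands on the list, WNT3A, the ligand that sustains the tailbud, rose from 6, 13 and 3 counts to 85, 61 and 94. WNT5B rose from 20, 32 and 33 counts to 783, 647 and 781 and WNT5A by 2.40 on the log2 scale. WNT8A stayed low, with 2, 1 and 2 against 11, 12 and 16 counts (adjusted p = 7.4e-04), and did not pass the filter when NMP-L replicate 2 or 3 was left out. HES7, an oscillating repressor of the segmentation clock, went from 2, 0 and 0 counts to 50, 24 and 66, and the Notch ligand DLL1 and the streak gene MIXL1 rose by 0.86 and 2.15.

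The falls of the caudal list were in the FGF ligands FGF4 (from 84, 97 and 110 counts to 5, 5 and 8) and FGF17 (-2.89), in CYP26A1, which degrades retinoic acid (from 315, 267 and 345 counts to 12, 6 and 3), in AXIN2 and in TBX6. FGF8 was too low to test, with 4, 11 and 7 counts in hESCs and 3, 2 and 1 in NMP-L cells. TBX6, the T-box factor of presomitic mesoderm, had 86, 126 and 113 counts in hESCs and 53, 54 and 54 in NMP-L cells (log2 fold change -1.24, adjusted p = 1.3e-04). MSGN1, another presomitic mesoderm factor, had 0 counts in hESCs and 7, 4 and 2 in NMP-L cells, and RSPO3, an enhancer of Wnt signalling, 0 in hESCs and 19, 8 and 61 in NMP-L cells.

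**Figure D2:**
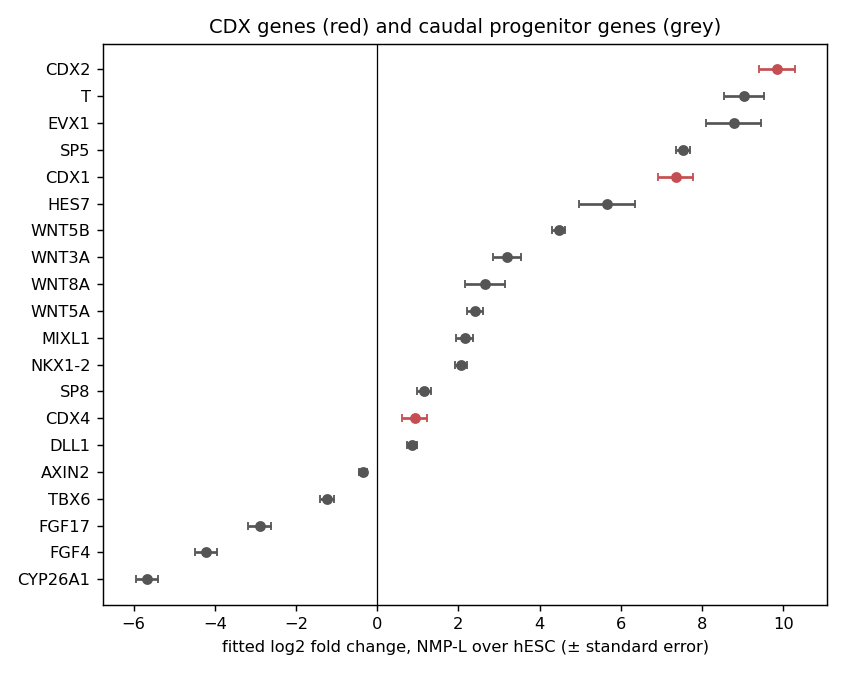
Fitted log2 fold change of NMP-L over hESC (horizontal axis, bars are the standard error) for the 3 CDX genes (red) and the 17 tested caudal progenitor genes (grey). CDX2, CDX1, T and SP5 sit between 7.35 and 9.84, and CDX4 at 0.92 lies between SP8 and DLL1. The bars of CDX1 and CDX2 are narrower than their standard errors with DESeq2 (0.75 and 1.19). The point of EVX1, which had 0 counts in all hESC libraries, depends on how the fit treats zeros and is no measured fold.

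HOX genes are the best known targets of CDX proteins. Among the 15 HOX genes of paralogue groups 5 to 9, the trunk genes for which control by CDX is best known, none passed the filter, 14 never exceeded the floor of 3 counts in any library, and 6 of these had no count at all. Their summed level was at most 0.630 TPM in an NMP-L library, against a summed CDX level of at least 30.8 TPM. The remaining gene was HOXA7, with 2, 1 and 0 counts in hESCs and 11, 4 and 4 in NMP-L cells. Tested without the filter, HOXA7 changed by 2.31 on the log2 scale (standard error 0.90, adjusted p = 0.049). Transcripts of all 12 genes of groups 10 to 13, the most posterior HOX genes, were not detectable above the floor at this depth, and 7 of the 12 had no count. Of the anterior genes, HOXB1 had 2, 1 and 1 counts in hESCs and 1, 3 and 6 in NMP-L cells, and HOXB2 11, 9 and 12 against 2, 8 and 5.

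Other settings in which CDX genes are known to act were examined through lists of their genes. Of 13 intestinal genes known as CDX targets, 3 passed the filter and 8 never exceeded the floor, among them SI, ALPI, KRT20 and FABP2 with 0 counts throughout. GUCY2C, the guanylin receptor, fell (-0.75, adjusted p = 0.019), as did HEPH, a copper-dependent ferroxidase (-0.47, adjusted p = 5.1e-04). Both calls were lost relative to GAPDH counts, where HEPH was at 0.09 and GUCY2C at -0.20, and GUCY2C also with DESeq2 (adjusted p = 0.058) and without hESC replicate 2, hESC replicate 3 or NMP-L replicate 3 (0.062, 0.056 and 0.068). VIL1, which encodes the microvillus protein villin, had 62, 90 and 85 counts in hESCs and 104, 85 and 103 in NMP-L cells (adjusted p = 0.74). Relative to GAPDH counts VIL1 was called higher (0.63, adjusted p = 0.0079).

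Of 12 markers of trophectoderm and trophoblast, 5 passed the filter. GATA2, KRT7, EOMES and TFAP2C rose and TEAD4 fell (-0.97, adjusted p = 4.8e-06), so that all 5 were called, against 55.8% of all genes tested. EOMES, which is also a primitive streak gene, had 2, 1 and 0 counts in hESCs and 46, 48 and 64 in NMP-L cells, and thus passed the filter only through NMP-L cells. KRT7, a simple epithelial keratin, went from 92, 96 and 104 to 310, 229 and 264 counts. The rise of TFAP2C (0.28, adjusted p = 0.021) was lost with the replicate block (adjusted p = 0.075), without hESC replicate 1, hESC replicate 2 or NMP-L replicate 2 (0.052, 0.060 and 0.11), and relative to HPRT1 counts, where it was at -0.02. The defining markers VGLL1, CGA and ELF5 had at most 2 counts in any library, TP63 at most 5 and GATA3 at most 13. The summed level of the 12 markers was 119 to 127 TPM in hESCs and 112 to 118 TPM in NMP-L cells, most of it from TFAP2C and TEAD4.

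Of 8 markers of definitive endoderm, 3 were tested. FOXA2 (7.19, adjusted p = 9.6e-08) and HHEX (0.78, adjusted p = 9.2e-04, or 0.49 and 0.11 relative to HPRT1 counts) rose and CXCR4 had an adjusted p of 0.17, while SOX17 had at most 1 count in any library. The sum of the endoderm markers was 6.63 to 8.02 TPM in hESCs and 21.6 to 35.2 TPM in NMP-L cells. Most of this rise came from FOXA2, at 0.103 TPM on average in hESCs and 17.2 TPM in NMP-L cells. Of 8 paraxial mesoderm markers 3 were tested, TBX6 and TCF15 (-1.95, adjusted p = 1.5e-05) falling and MESP2 with an adjusted p of 0.70, and MEOX1, PAX3 and UNCX stood at no more than 3 counts in any library. Their sum went from 15.0 to 18.6 TPM in hESCs to 6.10 to 8.03 TPM in NMP-L cells.

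Of 8 neural progenitor markers 3 were tested. SOX1 (4.72, adjusted p = 7.6e-08) and HES5 (2.77, adjusted p = 2.5e-04) rose and IRX3 had an adjusted p of 0.090. PAX6, too low to test, went the other way, with 3, 8 and 7 counts in hESCs and 1, 0 and 0 in NMP-L cells. The neural sum was 2.26 to 3.73 TPM in hESCs and 8.64 to 10.98 TPM in NMP-L cells. All 8 pluripotency markers fell (26.7% of all genes tested did), TDGF1 (-0.51) only where counts were not taken relative to GAPDH, and their sum went from at least 4312 to at most 2535 TPM. The part of other cell types in the CDX values was not tested.

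Genes beside the CDX genes were examined as the protein-coding genes that start within 250 kb of a CDX start (GENCODE release 44 on GRCh37), 18 in all, of which 12 passed the filter. SLC6A7, a proline transporter gene that starts 23284 bases downstream of the CDX1 start, had 0 counts in all hESC libraries and 30, 18 and 31 in NMP-L cells. It was at least 7.84-fold higher with each hESC library set at the floor (adjusted p = 3.7e-05), and it was lowest in NMP-L replicate 2, as CDX1 was. That library was also the lowest for 34.0% of all genes called higher. PDGFRB, a growth factor receptor gene whose start lies at -10906 bases, upstream of CDX1, had 87, 97 and 79 counts in hESCs and 97, 67 and 111 in NMP-L cells (adjusted p = 0.44). Farther out, the sulfatase gene ARSI rose by 1.41 (adjusted p = 5.1e-06) and TIGD6 by 0.85 (adjusted p = 0.0012, or 0.092 relative to HPRT1 counts), CD74, the MHC class II invariant chain, fell by 2.24 on the log2 scale (adjusted p = 1.7e-08), and SLC26A2, HMGXB3 and TCOF1 had adjusted p-values of 0.089, 0.084 and 0.23.

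Around CDX2 the other ParaHox genes had at most 4 counts in any library: PDX1, which starts 49315 bases downstream, had a single count in 1 NMP-L library, and GSX1 had 0, 1 and 4 counts in NMP-L replicates 1, 2 and 3 and 0 in hESCs. URAD, whose start lies at -19378 bases from that of CDX2, had 0 counts in all 6 libraries. FLT3 (27, 29 and 22 against 28, 18 and 33 counts) and PAN3 had adjusted p-values of 0.52 and 0.18. The neighbours of CDX4 were NAP1L2, with 554, 462 and 449 counts in hESCs and 480, 537 and 634 in NMP-L cells (adjusted p = 0.70), and CHIC1 (log2 fold change 0.27, adjusted p = 0.35).

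**Figure D3:**
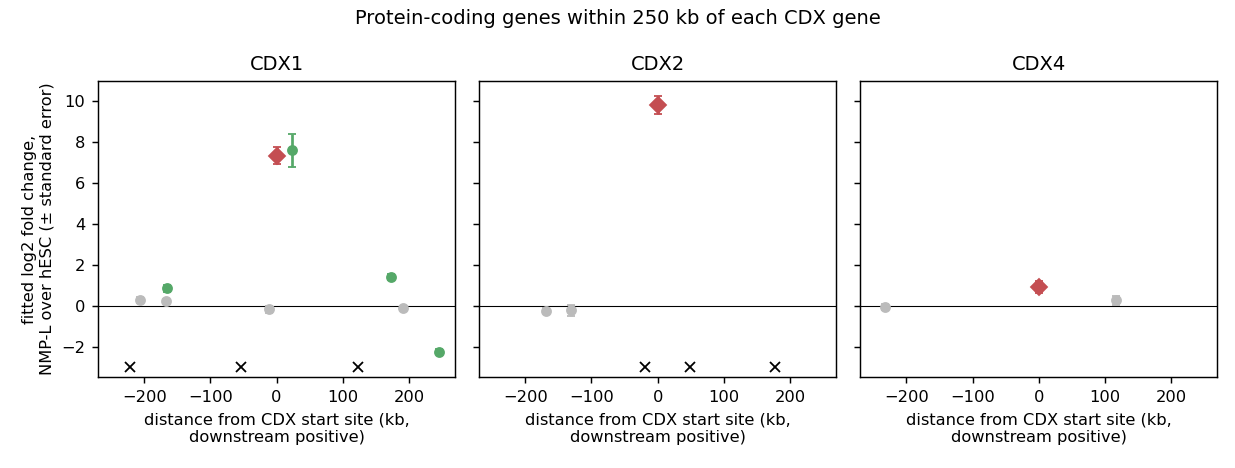
Fitted log2 fold change of NMP-L over hESC (vertical axis, bars are the standard error) against distance from the CDX start in kb (horizontal axis, downstream positive) for protein-coding genes within 250 kb of CDX1, CDX2 and CDX4. Red diamonds are the CDX genes, green points are called genes, grey points tested genes that were not called, and crosses at the foot mark genes too low to test. The tested neighbours of CDX2 and CDX4 lie between -0.23 and 0.27. The high point beside CDX1 is SLC6A7, which had 0 counts in all hESC libraries, so that its height depends on how the fit treats zeros and is no measured fold.

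The changes of CDX1 and CDX2 were past the threshold in all 16 alternative settings in which they could be tested, with log2 fold changes between 3.94 and 11.02 for CDX1 and between 4.36 and 11.82 for CDX2. The lowest of these values are on the log2(TPM + 1) scale, which understates the change of a gene near 0. CDX4 was past the threshold in 12 of 17 settings, with log2 fold changes between 0.66 and 1.46.

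**Figure D4:**
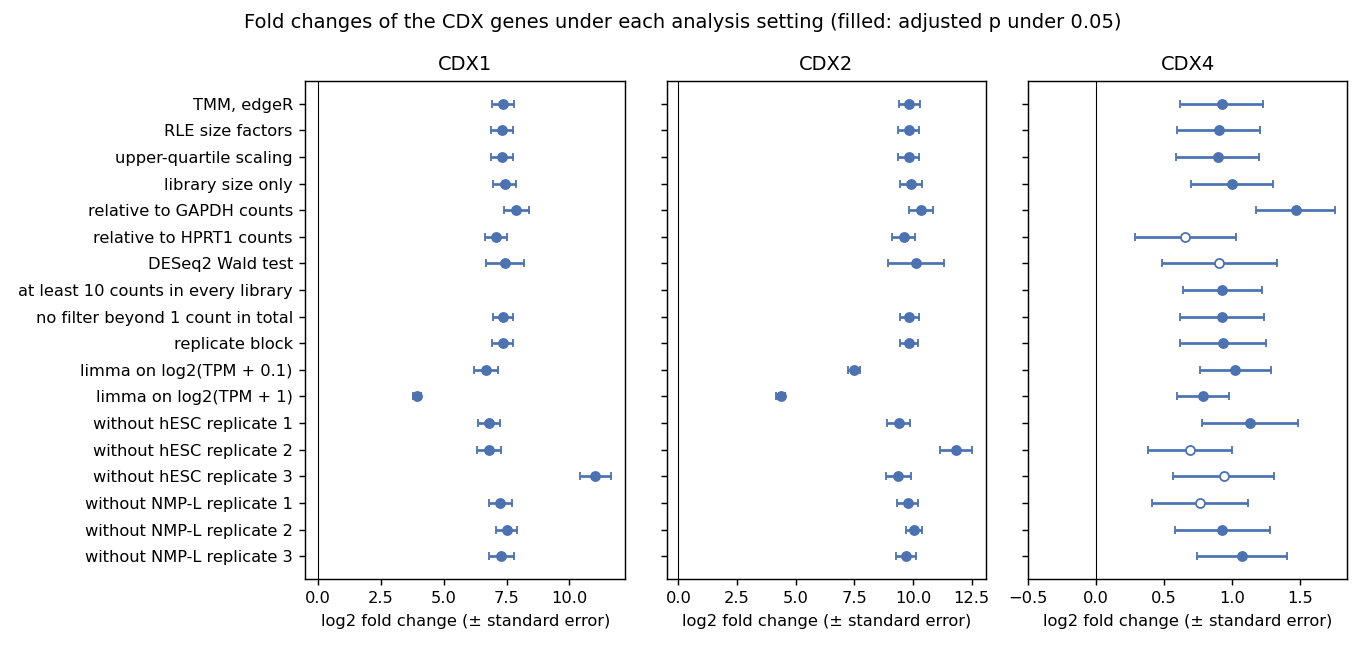
Log2 fold change of NMP-L over hESC (horizontal axis, bars are the standard error) of CDX1, CDX2 and CDX4 under each setting of the analysis (rows), with filled points for an adjusted p under 0.05 and open points otherwise. The points of CDX1 and CDX2 are filled in every row in which they appear, and 5 points of CDX4 are open. The bars of CDX1 and CDX2 are widest with DESeq2. CDX1 and CDX2 have no point in the row for at least 10 counts in every library.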

How the data were processed

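The authors deposited 1 table with RSEM expected counts, not normalized between libraries, and TPM values, scaled by effective length, for 3 hESC and 3 NMP-L libraries of single-end 76 bp reads. The submitters' processing notes name cutadapt 1.9.1, STAR 2.5.2a, RSEM 1.3.0 and DESeq2 1.12.3 and the build hg19. The RNA-seq annotation is not given in the sources used here. No per-sample column was left unused. RSEM divides reads shared between genes, and 8.44% of genes had a fractional count. Strand handling is not given, so that reads of overlapping antisense genes cannot be told apart.

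Counts were rounded and tested in R 4.3.3 with edgeR 4.0.16 (filterByExpr with a minimum count of 10, TMM, glmQLFit and glmQLFTest for condition, Benjamini-Hochberg adjustment over all 15517 genes tested, threshold 0.05). The standard error of the edgeR fits is the log2 fold change divided by the square root of F. For genes with almost no hESC counts it is too small, as the larger DESeq2 values for CDX1 and CDX2 show. Exact permutation tests used a pseudocount of 0.1 on CPM or TPM. Counting intervals are exact binomial (Clopper-Pearson). Reads carry no molecular identifiers. The pipeline was tested on simulated data. Alternatives used limma 3.58.1 and DESeq2 1.42.0, and tables and plots Python 3.11.15 and matplotlib 3.10.9.

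Named genes are the CDX genes, genes of the lists, protein-coding genes within 250 kb, the 3 genes nearest to each CDX gene in log2(TPM + 0.1), and GAPDH, HPRT1 and SOX2. A listed gene is not reported here. The members and lists were chosen with earlier results of these data known, and the promoter motifs after the sequences were seen. Gene positions are from GENCODE release 44 on GRCh37 and promoters from RefSeq on GRCh38.p14.

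Both conditions use replicate numbers 1 to 3, and no source pairs the libraries.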

Additional observations from a re-analysis of the deposited data

How the results depend on the processing

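The alternatives were RLE, upper-quartile and library-size scaling, counts relative to GAPDH or HPRT1, DESeq2, 2 other filters, limma on log2(TPM + 0.1) and log2(TPM + 1), the replicate block and each library left out. The fold of CDX4 lost its call relative to HPRT1 counts (0.66) and with DESeq2 (0.91), and ranged from 0.69 to 1.13 with a library left out. CDX1 ranged from 6.79 to 11.02 and CDX2 from 9.38 to 11.82 in those fits, and both fell out of the test at a minimum of 10 counts in every library. That filter left 8 caudal progenitor genes and 0 HOX genes of groups 1 to 9 called, since it removes every gene under 10 counts in any library. Without a filter 2 such HOX genes were called, HOXA7 among them, and 1 to 2 with a library left out, HOXB2 (-1.84) among the 2 without NMP-L replicate 2. Relative to HPRT1 counts 6 regulators of CDX transcription were called, 1 higher and 5 lower. With CPM, which is not scaled by length, in place of TPM, the log2 differences in NMP-L cells were 0.78 for CDX2 over CDX1, 3.63 for CDX2 over CDX4 and 2.85 for CDX1 over CDX4. With a library left out these were 0.29 to 0.40, 1.82 to 2.33 and 1.54 to 1.93 in TPM. With a floor of 1 count the bounds for EVX1 and SLC6A7 were 53.3-fold and 23.5-fold. Same-numbered libraries did not deviate together (correlations of -0.34, -0.06 and -0.13 for replicates 1, 2 and 3). With the replicate number as a block 7560 genes were called in place of 8653, and the log2 fold changes of CDX1, CDX2 and CDX4 were 7.36, 9.83 and 0.93 (adjusted p = 3.6e-08, 2.3e-09 and 0.028). Across these settings 7087 to 11455 genes were called. Depth limits CDX4 and the HOX genes, which rest on few counts.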
